A study of Homo sapiens with 8 samples.

Results

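Gene expression was compared between U87 cells that received 50 µM of a ligand of the DNA minor groove 1 h ahead of 8.5 Gy of ionizing radiation and U87 cells given 8.5 Gy alone. The comparison rests on the 4 arrays titled for those conditions, of 8 arrays in the series, taken by title. U87 is an established human glioma cell line. The other 4 arrays are cells given 50 µM ligand alone and untreated control cells, and they enter here through the normalization and as levels beside the compared arrays. Plating preceded treatment by 24 h, RNA was prepared after a further 4 h in all groups, and the labels name the ligand only as a minor groove binder. Both sides of the comparison were irradiated, so the comparison asks what the ligand added in irradiated cells.

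Ionizing radiation breaks DNA and starts a transcriptional response, best known for the p53 pathway, which raises genes of cell cycle arrest, repair and cell death within hours. Minor groove ligands lie along AT-rich stretches of the narrow groove of the double helix, and some of them scavenge radicals or hinder proteins that act on DNA, such as topoisomerases. U87 is a widely used model of glioblastoma, and cells of this line carry normal p53. This is background and was not measured here, because the files give probe identifiers without gene names.

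The probes of the series lie on 2 array designs, A and B, with 19700 probes each and 0 probes in common. Each condition had 1 array per design. The pair on design A and the pair on design B are therefore not replicates of each other, the differences below lack a replicate error, and p-values cannot be given. Precision is limited by the number of arrays, and a treatment difference and a deviation of 1 array cannot be told apart at a probe. Whether both arrays of a condition carried the same RNA is not given. None of the 39400 identifiers (0) matched a human gene table, so the markers of glioma cells and of other cell types could not be read and the label of the cells was not checked. For the same reason the 361 genes of 23 pathway and marker lists, which include p53 targets, DNA repair and cell cycle genes, are not analysed here.

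On design A the median intensity was 148 with ligand plus radiation and 174 with radiation, against 140.0 with ligand and 214 in control. Design B had medians of 260.2, 239, 246 and 221 in that order. Values were therefore compared after log2 conversion and quantile normalization over the 4 arrays of a design, which gives the arrays the same distribution. A difference below is the normalized log2 value with ligand plus radiation minus that with radiation, so 1 is a 2-fold higher value with the ligand. A probe entered a count where at least 1 of the 2 compared arrays reached its own median intensity. The words higher and lower refer to the 2-fold threshold, and no test stands behind them.

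Single differences are given first for probes that lay at or above the median on all 4 arrays of their design. Of these, 6932 probes (design A) and 8081 (design B) also stayed within the range of a 16-bit scan. Probe identifiers are given for the largest positive and the largest negative difference among them on each design. Their sequences and genes are not given in the files.

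Probe A#30422 read 11672 with ligand plus radiation and 468 with radiation, against 5306 with ligand and 8308 in control. The radiation array alone was low at this probe, and the array with ligand plus radiation lay close to both unirradiated arrays after normalization. The normalized difference was 4.35 on the log2 scale. The SD across the 985 probes in the brightest 5% of design A, where this probe falls, was 0.62. Their median intensity was 1459, so many were dimmer than this probe. The value is the largest of 6932, and the SD does not measure how unusual it is. The next largest positive difference among these probes of design A was 3.24.

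Probe B#38412 read 40062 with ligand plus radiation and 373 with radiation, against 525 with ligand and 303 in control. Here the array with ligand plus radiation alone was high, and the other 3 arrays lay at 525 or less. The normalized difference was 6.08, followed by 4.63 at the next probe.

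Probe A#12500 read 235 with ligand plus radiation and 2102 with radiation, against 1074 with ligand and 2181 in control. The array with ligand plus radiation was the low one, and the radiation array stood close to control. The normalized difference was -3.07, and the next largest negative one on design A was -2.67.

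Probe B#23509 read 1057 with ligand plus radiation and 6339 with radiation, against 6517 with ligand and 5071 in control. Again 1 array, that with ligand plus radiation, stood below 3 arrays of like intensity. The normalized difference was -2.84, and the next was -2.40.

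The ligand difference without radiation at these 4 probes takes the compared arrays only into the normalization, but the probes were chosen in part by their intensity on the ligand and control arrays. Ligand minus control was 0.35 at A#30422, 0.58 at B#38412, -0.28 at A#12500 and -0.22 at B#23509. After quantile normalization each had the sign of the difference in irradiated cells, at less than a 2-fold size. The deposited intensities ran the other way at A#30422, at 5306 with ligand and 8308 in control. They also did so at B#23509, at 6517 with ligand and 5071 in control. At B#38412 and A#12500 the deposited order matched the normalized sign. These signs were not recomputed under the other settings. Across probes that passed the filter for the ligand and control arrays, the SD of ligand minus control was 0.91 on design A and 0.48 on design B. Only the value at B#38412 exceeded the SD of its design. Of the 10932 passing probes of design A, 60.9% were above 0, with a median of 0.20. The shared sign was not tested. Whether the ligand difference depended on radiation at these probes was not tested, since each value rests on 1 array a side.

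**Figure D1:**
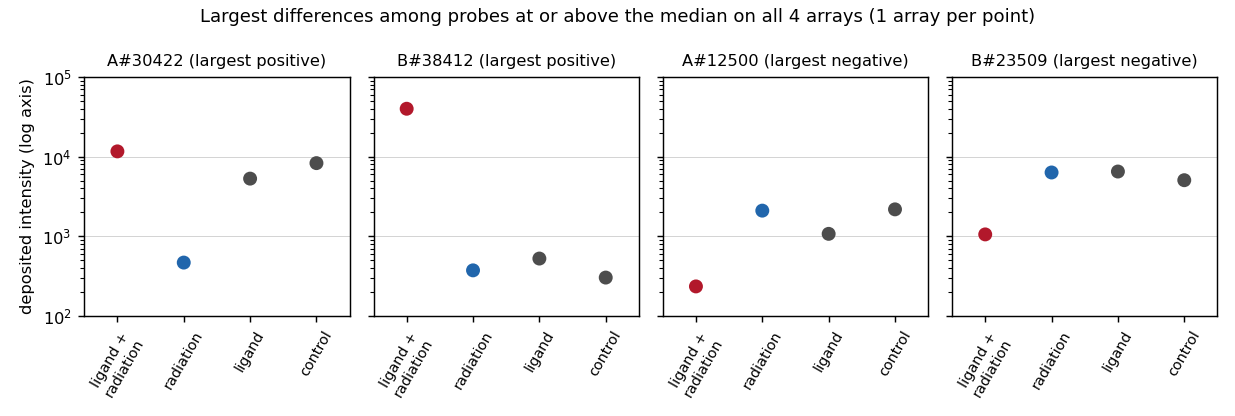
Deposited intensity (log axis) of the 4 named probes on each array of their design, 1 point per array, with ligand plus radiation in red, radiation in blue and the ligand and control arrays in grey. At A#30422 the radiation array stands apart at 468, and at the other 3 probes the array with ligand plus radiation stands apart, at 40062, 235 and 1057.

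Most probes differed little between the 2 irradiated conditions. On design A, 80.6% of the 10932 probes that passed the intensity filter differed by less than 0.5 on the log2 scale, and the differences between the 25th and 75th percentiles ran from -0.23 to 0.23. On design B, 91.4% of 10677 probes differed by less than 0.5, with these percentiles at -0.17 and 0.16. The 1st and 99th percentiles were -1.27 and 1.30 for design A and -0.96 and 0.97 for design B. The SD across probes was 0.46 on design A and 0.36 on design B.

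At the 2-fold threshold, 231 probes of design A were higher with ligand plus radiation (2.11% of those passing) and 225 were lower (2.06%), together 4.17%. On design B, 100 were higher (0.937%) and 98 lower (0.918%), together 1.85%. The split between directions was even on both designs as reported. Quantile normalization gives the arrays the same distribution and so favours an even split, which is therefore not a result about the ligand. On design A the share of higher probes was 50.7% here and 48.4% with cyclic loess. It was not even with median scaling, at 68.4%, or with the authors' own scores, at 25.2%. Median scaling moved the median difference of the probes that passed on design A to 0.15, and the authors' scores moved it to -0.25, from -0.01.

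Larger differences were few on both designs, and whether the designs differ in them was not tested. At 4-fold, design A held 18 higher and 22 lower probes and design B 19 higher and 15 lower. At 8-fold the counts were 4 higher and 4 lower on design A and 5 higher and 2 lower on design B. At 16-fold, 5 probes of design B were higher with ligand plus radiation and 1 was lower, and on design A there were 2 each way. Of the 100 higher probes of design B, 2 read above the 16-bit range on the array with ligand plus radiation, and without them 98 were counted.

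**Figure D2:**
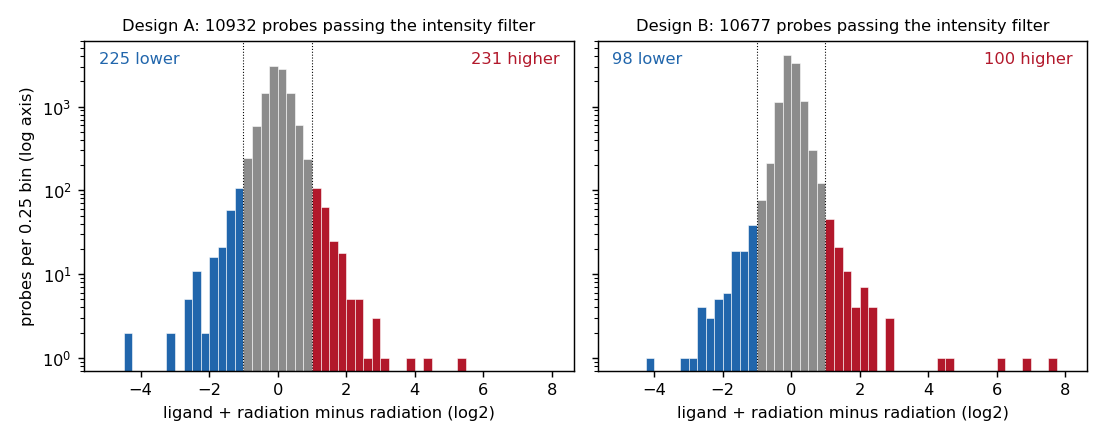
Number of probes (log axis) by normalized log2 difference, ligand plus radiation minus radiation, in bins of 0.25, for design A with 10932 probes and design B with 10677. Dotted lines mark the 2-fold threshold, with 231 higher and 225 lower probes on design A and 100 and 98 on design B, and the right tail of design B reaches 7.61.

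The levels of the counted probes differed between the arrays in a way that depended on the design. The filter bears on these levels, because it admits a probe through its brighter array alone. On design A, 114 of the 231 higher probes had the radiation array below its median, and 131 of the 225 lower probes had the array with ligand plus radiation below it. On design B these numbers were 34 of 100 and 32 of 98. Levels are therefore also given for the probes with both compared arrays at or above their medians.

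On design B the 100 higher probes had a median normalized log2 level of 10.11 with ligand plus radiation and 8.44 with radiation, against 8.76 with ligand and 8.45 in control. The array with ligand plus radiation was thus bright at these probes and the other 3 were closer together, near the 8.50 that all passing probes had on each array. The 98 lower probes had a median of 8.27 with ligand plus radiation and 10.01 with radiation, against 8.43 with ligand and 8.64 in control. There the radiation array was the bright one. With both compared arrays at or above their medians, the 66 higher probes had medians of 10.70 with ligand plus radiation and 9.07 with radiation, against 9.14 with ligand and 8.86 in control. The 66 lower probes then had 8.82 and 10.73, against 9.39 with ligand and 9.81 in control, so the unirradiated arrays lay between the compared ones.

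Counted probe by probe, the array with ligand plus radiation had the highest value of the 4 at 94 of the 100 higher probes of design B. Part of this follows from the choice of the probes, since the radiation array cannot be highest among them. Among all 4981 probes of design B that were higher by any amount, the share was 55.8%, against 94% of the counted ones. A gap of at least 2-fold by itself places a compared array further out among the 4, and most gaps in the wider set were smaller. The wider share is therefore no baseline for the counted probes. At 51 of the 100 the array with ligand plus radiation lay at least 2-fold above both the ligand and the control array. The radiation array lay at least 2-fold below both of them at 2 of the 100. Over all 4981 probes higher by any amount these counts were 58 (1.16%) and 9 (0.181%).

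Among the 98 lower probes of design B the radiation array was the highest of the 4 at 76, or 77.6%, against 50.8% of the 5686 probes lower by any amount. The same limit holds for these shares, since the counted gaps are larger by choice. At 45 of the 98 the radiation array lay at least 2-fold above both unirradiated arrays, and at 16 the array with ligand plus radiation lay at least 2-fold below both. Over all 5686 probes lower by any amount these counts were 52 (0.915%) and 22 (0.387%). With both compared arrays at or above their medians, the array with ligand plus radiation lay 2-fold above both unirradiated arrays at 37 of 66 higher probes, and the radiation array lay 2-fold below both at 0. At the 66 lower probes the radiation array lay 2-fold above both at 23, and the array with ligand plus radiation 2-fold below both at 14. A share over all probes was not computed for this narrower filter.

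The levels on design A had another form. Its 231 higher probes had a median level of 8.90 with ligand plus radiation and 7.48 with radiation, against 7.99 with ligand and 8.48 in control. Its 225 lower probes had a median of 7.14 with ligand plus radiation and 8.60 with radiation, against 7.91 with ligand and 8.47 in control. With both compared arrays at or above their medians, the 117 higher probes had 10.08 with ligand plus radiation and 8.69 with radiation, against 9.04 with ligand and 9.67 in control. The 94 lower probes then had 8.67 and 10.12, against 9.06 with ligand and 10.13 in control. All passing probes had medians from 7.99 to 8.05 on the 4 arrays.

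At 153 of the 231 higher probes of design A, or 66.2%, the array with ligand plus radiation was the highest of the 4, and at 141, or 61.0%, the radiation array was the lowest. Among the 5331 probes higher by any amount these shares were 44.7% and 25.9%. At 160 of the 225 lower probes, or 71.1%, the array with ligand plus radiation was the lowest, and at 115, or 51.1%, the radiation array was the highest. Among the 5590 probes lower by any amount the shares were 25.8% and 41.4%. As on design B, the gaps of the counted probes are larger by choice, so the wider shares are no baseline for them. The shares for ligand plus radiation depended on the settings. With both compared arrays at or above their medians it was the highest at 77.8% of the higher probes and the lowest at 57.4% of the lower probes, which turns their order round. Among higher probes the share was 84.9% with median scaling and 54.4% with the authors' scores. Among lower probes it was 81.4% at a log2 threshold of 1.5 and 60.3% with the authors' scores. Of the 231 higher probes, 32 had a 2-fold gap to both unirradiated arrays on the array with ligand plus radiation and 29 on the radiation array, and of the 225 lower probes 35 and 20. Over the 5331 probes higher by any amount these counts were 54 (1.01%) and 37 (0.694%). Over the 5590 probes lower by any amount they were 48 (0.859%) and 51 (0.912%).

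**Figure D3:**
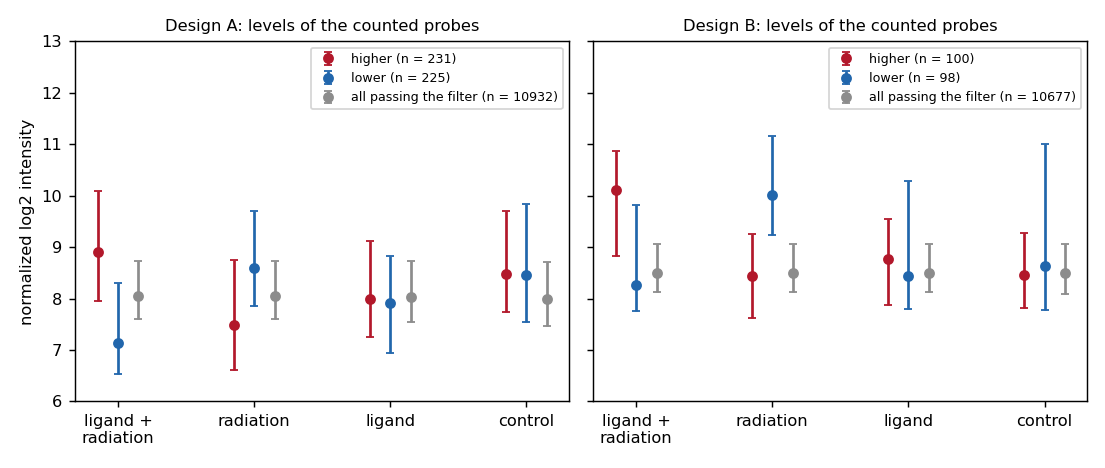
Normalized log2 intensity on each array of the probes counted as higher (red) or lower (blue) with ligand plus radiation than with radiation, and of all probes passing the filter (grey). Points are medians over probes and bars run from the 25th to the 75th percentile of probes, not an error over replicates. On design B the higher probes stand out on the array with ligand plus radiation (10.11) and the lower probes on the radiation array (10.01).

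The ligand and control arrays entered the choice of the counted probes only through the normalization, so ligand minus control gives a second reading of the ligand difference, without radiation. On design B its median was 0.16 at the 100 probes that were higher with ligand in irradiated cells, -0.07 at the 98 lower probes and -0.04 over all 10677. It was above 0 at 68 of the 100 higher probes and at 43 of the 98 lower probes, against 44.8% of all. A ligand difference of at least 2-fold upward without radiation was found at 5 of the 100 higher probes (5%) and at 3 of the 98 lower probes (3.06%), against 2.41% of all passing probes. A 2-fold downward difference was found at 2 of the higher (2%) and 7 of the lower probes (7.14%), against 0.571% of all. In either direction together, 7 of the higher and 10 of the lower probes had a 2-fold ligand difference in unirradiated cells, against 2.98% of all. Brightness differed as well. Of the higher probes 24% and of the lower probes 29.6% were in the brightest 5% of design B. Among passing probes the share was 9.23%, and the part of brightness was not tested.

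On design A the median of ligand minus control was -0.23 at the 231 higher probes and -0.56 at the 225 lower probes, against 0.20 over all 10932. The higher probes thus lay above the lower ones, but both lay below the whole. A 2-fold downward difference without radiation was found at 70 of the higher probes (30.3%) and at 79 of the lower probes (35.1%), against 11.0% of all. A 2-fold upward difference was found at 20 (8.66%) and 8 (3.56%), against 6.28%. Probes counted on design A in either direction were thus more often lower with ligand alone than passing probes as a whole. Brightness moved with this result: 22.1% of the higher and 19.1% of the lower probes were in the brightest 5% of the design, against 9.01% of those passing, and its part was not tested. Ligand and control also had the largest 2-fold count of any pair of arrays of design A. It was 21.5% of the probes that passed the filter for that pair.

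The spread of the difference depended on brightness. Probes were placed in 20 classes of equal size by mean normalized log2 level, here without the intensity filter. For design A, an SD of 0.66 was found in the dimmest class, whose median intensity was 61.7. It was lowest, at 0.37, in the 14th class at an intensity of 237, and it was 0.62 in the brightest class at 1459. For design B it was 0.48 in the dimmest class, 0.25 at its lowest in the 10th class, and 0.62 in the brightest class. The share of probes at least 2-fold apart followed the same course. It was 11.7% in the dimmest, 2.13% in the 14th and 9.54% in the brightest class of design A. On design B it was 3.96% in the dimmest, 0.305% in the 10th and 5.38% in the brightest class.

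The dimmest class of design A was one-sided, with 80 probes lower and 35 higher by 2-fold, and that of design B leaned the other way, with 11 lower and 28 higher. The intensity filter removed nearly all of these, leaving 1 passing probe in each of the 2 classes. In the brightest class the directions were close to even, with 51 higher and 43 lower probes on design A and 24 higher and 29 lower on design B. A 2-fold difference therefore lay further outside the common spread for a probe of middle brightness than for a dim or a very bright one. Counting instead the probes at least 4 robust SD from 0 for their class, an alternative chosen after the data were seen, gave 104 higher and 101 lower probes on design A and 117 and 106 on design B. By that count the designs held similar numbers, whereas the 2-fold count was over 2 times as large on design A.

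**Figure D4:**
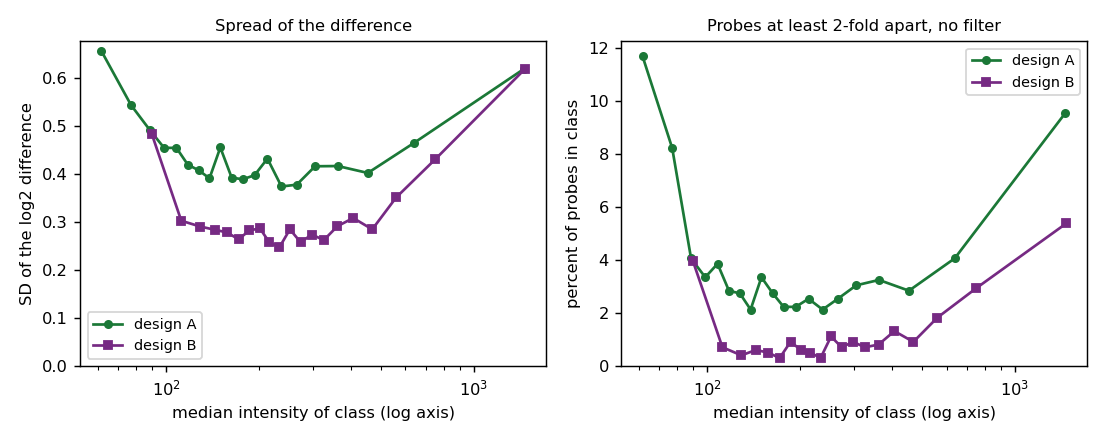
SD of the log2 difference, ligand plus radiation minus radiation (left), and percent of probes at least 2-fold apart without the intensity filter (right), in 20 brightness classes per design, against the median intensity of the class (log axis). Both measures are high at the dim and the bright end, with an SD of 0.62 in the brightest class of each design and 0.37 and 0.25 at the lowest points of designs A and B.

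The 2 irradiated arrays were closer to each other than to the other arrays of their design. On design A the 2-fold count was 4.17% of passing probes for ligand plus radiation minus radiation, and between 7.29% and 21.5% for the other 5 pairs of arrays. On design B it was 1.85%, and between 2.32% and 3.78% for the others. The SD across probes was likewise lowest for the irradiated pair, at 0.46 against 0.58 to 0.91 on design A and at 0.36 against 0.42 to 0.48 on design B. By interquartile range this held on design A, at 0.454 against 0.621 to 1.12, but not on design B, where ligand plus radiation minus ligand had 0.316 and the irradiated pair 0.321. These pairs share arrays, and with 1 array per condition the order of the pairs was not tested.

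Along the probe numbers the counted probes were spread over the whole of each design. With the probes of a design divided by number into 10 blocks of equal size, between 3.46% and 5.66% of passing probes were counted per block of design A. For design B the blocks ran from 1.34% to 2.61%. The directions were less even: the last block of design A had 15 higher and 37 lower probes, and the second had 31 and 17. The median difference in the last block was -0.06. Removal of a running median along probe number left 234 higher and 221 lower probes on design A and 108 and 97 on design B. What probe number stands for on the slide is not given in the sources used here.

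Probes counted as reported were mostly counted again under settings that changed the normalization or background, but some of these settings added many others. The settings were median scaling, cyclic loess, quantile normalization over only the 2 compared arrays, normexp background correction with an offset of 50 or of 16, and removal of the running median. Of the 231 higher probes of design A, 219 (94.8%) were counted as higher under all 6, and of the 225 lower probes 162 (72%). On design B, 95 of the 100 higher probes and 91 of the 98 lower probes (92.9%) were counted under all 6. The losses among the lower probes of design A came mainly with median scaling, which kept 173 of the 225 and counted 445 probes as higher. The probes counted as reported made up 51.7% of those 445. They made up 69.8% of the higher and 67.0% of the lower probes of design A after normexp with an offset of 16, and 62.9% and 65.8% on design B. With cyclic loess they made up 78.6% of the lower probes of design A. All of these settings start from the same single arrays, so they say nothing of how the probes would vary between repeat arrays.

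**Figure D5:**
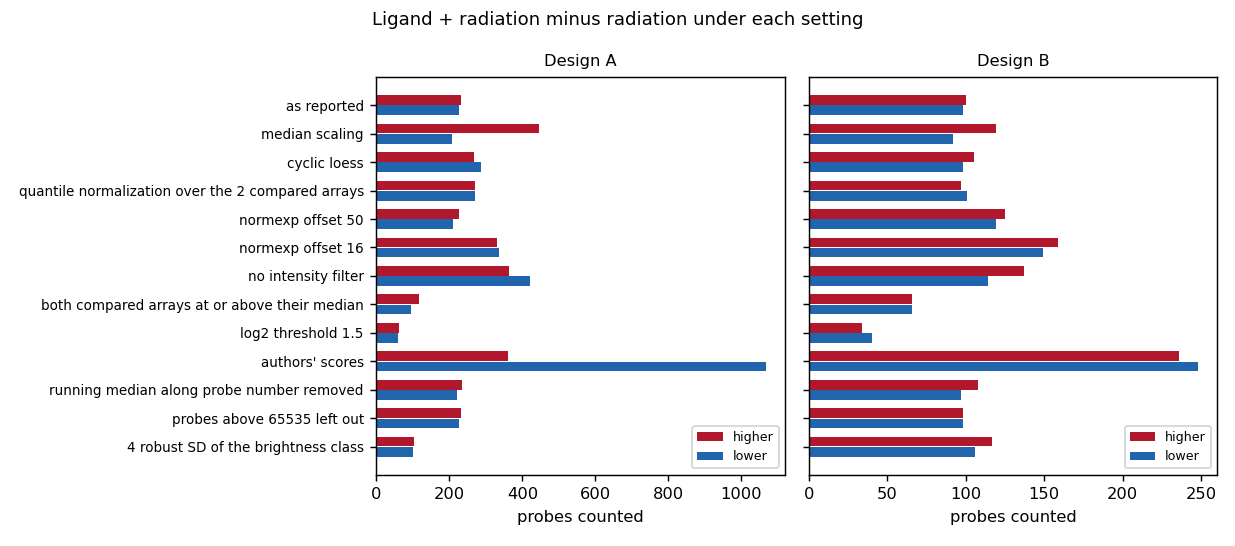
Probes counted as higher (red) or lower (blue) with ligand plus radiation than with radiation, as reported and under each alternative setting, on design A (left) and design B (right). The horizontal axes differ between designs, and the longest bar for higher probes of design A is that of median scaling, with 445. The authors' scores give the longest bars otherwise, with 1066 lower probes on design A and 236 higher and 248 lower on design B.

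The authors' deposited scores could be rebuilt from the intensities. Each score equalled log2 intensity minus the median of the 39400 values of a condition, designs A and B pooled, divided by the median absolute deviation (MAD) of the same values. The largest gap between a deposited and a rebuilt score was 5.0e-05, which is the rounding of the table. The centre was an intensity of 209 for ligand plus radiation and 206 for radiation, and the MAD was 0.751 and 0.662 on the log2 scale. A score is therefore a distance in MADs of its own condition and not a log2 value.

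This scaling bears directly on the comparison, because the MAD was larger with ligand plus radiation. A probe that read 10000 on both arrays would score 7.43 with ligand plus radiation and 8.46 with radiation, a difference of -1.02 with no difference in intensity. At 1000 on both arrays the score difference would be -0.43, and at 100 it would be 0.16. The pooling of both designs matters as well. The medians of the scores on design A were -0.66 with ligand plus radiation and -0.37 with radiation, and on design B 0.42 and 0.33, so the designs were shifted in opposite directions. With the scores, 1066 probes of design A were lower by at least 1 and 360 higher, against 225 and 231 by normalized log2 intensity.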

How the data were processed

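Total RNA of U87 cells was amplified, labelled with Cy3 and hybridised to 1-colour arrays, per the labels' protocols. The deposited files hold 1 linear intensity per probe, per the file headers and values; the sources used here do not give the scanner, image software, background treatment or any filter. The authors also deposited a score per probe for all 8 arrays, which served as an alternative.

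Samples were grouped by title and arrays assigned to design A or B by the letter in the probe identifier. Within each design, log2 intensities of its 4 arrays were quantile normalized, and the values were checked against limma 3.58.1 in R 4.3.3. On design B, 2 probes with a value of 0.001 were left out (0 on design A). Without gene names, the planned gene lists and the comparison of one gene on both designs were not run. Counts need a difference of at least 1 on the log2 scale and at least 1 compared array at or above its median. Named probes are the largest positive and negative difference per design among probes at or above the median of all 4 arrays and within the 16-bit range. No test was run, since each side has 1 array. Counting was tested on simulated data with known differences. These were larger than 2-fold, at brighter probes only, and the noise was the same at every brightness. The simulation therefore checks the code and not the error of the 2-fold counts. The members, lists and alternatives were chosen with earlier results of these data known. Alternatives were median scaling, cyclic loess, 2-array quantile normalization, normexp with offsets of 50 and 16, no filter or a filter on both arrays, a threshold of 1.5, the authors' scores and removal of a running median over 401 probes. After the data were seen, 2 were added: leaving out probes above the 16-bit range, and a threshold of 4 robust SD (1.4826 times the MAD) within the brightness class.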

Additional observations from a re-analysis of the deposited data

How the results depend on the processing

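No paired analysis was possible because each design has 1 array per condition, and for the same reason no array could be left out. At the 4 named probes the sign and the 2-fold call of ligand plus radiation minus radiation held under every setting in which the probe was scored. This log2 difference moved by less than 1.5-fold except with the authors' scores, which are on another scale. Ligand minus control at these probes was not recomputed. The counts of design A were 445 higher with median scaling, 362 higher and 420 lower without an intensity filter, 117 and 94 with both compared arrays at or above their median, 61 and 59 at a log2 threshold of 1.5, 360 and 1066 with the authors' scores, and 104 and 101 at 4 robust SD. Higher probes made up 68.4% of the counted ones of design A with median scaling and 25.2% with the authors' scores. The counts of design B were 159 higher and 149 lower after normexp with an offset of 16, 66 higher with both compared arrays at or above their median, 34 and 40 at a threshold of 1.5, and 236 and 248 with the authors' scores. The other 52 of 72 recomputed counts and shares stayed within 1.5 times or 10 percentage points of the reported ones. The shift of ligand minus control at the lower probes of design B, relative to all passing probes, was -0.04 as reported but 0.00495 with median scaling and 0.073 at a threshold of 1.5, so its sign depends on the setting; the cause was not tested. The shift at the higher probes of design B stayed positive and both shifts on design A stayed negative under every setting run. Without background columns, signal over background could not be set for any probe, and dim probes are limited only by the median filter.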
